A study of Homo sapiens with 24 samples.

Results

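The data described here are gene counts from 6 of 24 RNA sequencing libraries made from heart muscle cultures of a human embryonic stem cell line. They compare the atrial with the ventricular protocol in cells targeted for ZNF503, a zinc finger protein of the nucleus. The cells are HES3, an established human embryonic stem cell line, here with a GFP reporter at NKX2-5 and an mCherry reporter at NR2F2, and every group of the study carries both reporters. All groups went through CRISPR-Cas9 targeting and were grown as embryoid bodies, floating cell aggregates, in a Wnt-modulating protocol of at most 14 days. Retinoic acid was added on day 4 to the atrial cultures only. The 3 libraries labelled AM ZNF503 (atrial, with retinoic acid) were set against the 3 labelled VM ZNF503 (ventricular, without it), numbered 1, 2 and 3 in each group. The labels do not spell out AM and VM; they were taken here to stand for the atrial and the ventricular cultures. Of the other 18 libraries, the 6 from cells targeted at TRAC, a T cell receptor gene that served as the control target, were used to test whether the difference depends on the genotype, with those targeted at LHX2 and ZNF711. Whether a genotype is 1 clone or a pool, and whether the replicates are separate differentiations, is not stated in the labels, so the p-values measure the spread between these libraries.

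Atrial and ventricular muscle cells arise from progenitors that see different amounts of retinoic acid. In atrial cells the orphan nuclear receptors NR2F1 and NR2F2 (COUP-TFI and COUP-TFII) maintain the atrial programme. In ventricular cells the Notch-related repressor HEY2 and the Iroquois factor IRX4 hold atrial genes down, and the ventricular myosin light chain MYL2 appears as the cells mature. Retinoic acid acts through receptors (RAR and RXR proteins) bound to DNA, induces anterior HOX genes, and is degraded by the CYP26 enzymes.

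Levels are given in CPM, a gene's count relative to the library size, scaled by the trimmed mean of M values, and every series of 3 values below is in the order of replicates 1, 2 and 3. Fold changes are the fitted log2 ratios of AM to VM from edgeR's quasi-likelihood test over all 24 libraries. Each has a standard error (SE), derived as its absolute value divided by the square root of the test's F statistic. A gene was called where its Benjamini-Hochberg adjusted p over 17724 tested genes was below 0.05. In a bulk culture fewer cells of a type and less RNA per cell cannot be told apart.

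The 6 libraries held 4194908 to 5693509 counts, so that 3 counts in a single library were worth 0.494 to 0.704 CPM. Bounds for genes with no count in a group use a lower floor, 3 counts over the 3 libraries of that group together. For such genes the fitted log2 fold change rests on a small count added in the fit and does not give the size of the difference. VM replicate 3 stood apart from VM replicates 1 and 2. Along the principal components of the 6 libraries, taken over 1000 variable genes, the first, with 74.3% of the variance, separated AM from VM, and the second, with 15.3%, placed VM replicate 3 at -24.0 against 12.02 and 13.97 for the other two. The chi-square per degree of freedom between VM replicate 3 and VM replicates 1 and 2 was 22.6 and 24.99, against 7.78 between those 2 and 10.2 to 10.6 among the AM libraries. VM replicate 3 had more RNA of liver-type secreted proteins and less of sarcomere genes. The summed level of the 15 hepatic genes was 354, 284 and 1215 CPM in AM and 4723, 4086 and 26088 CPM in VM. That of the 20 sarcomere genes, 1 of which was too low to test, was 14218, 14999 and 18812 CPM in AM and 31806, 33027 and 17227 CPM in VM. Results that rest on these genes are therefore given also without replicate 3 of every group.

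**Figure D1:**
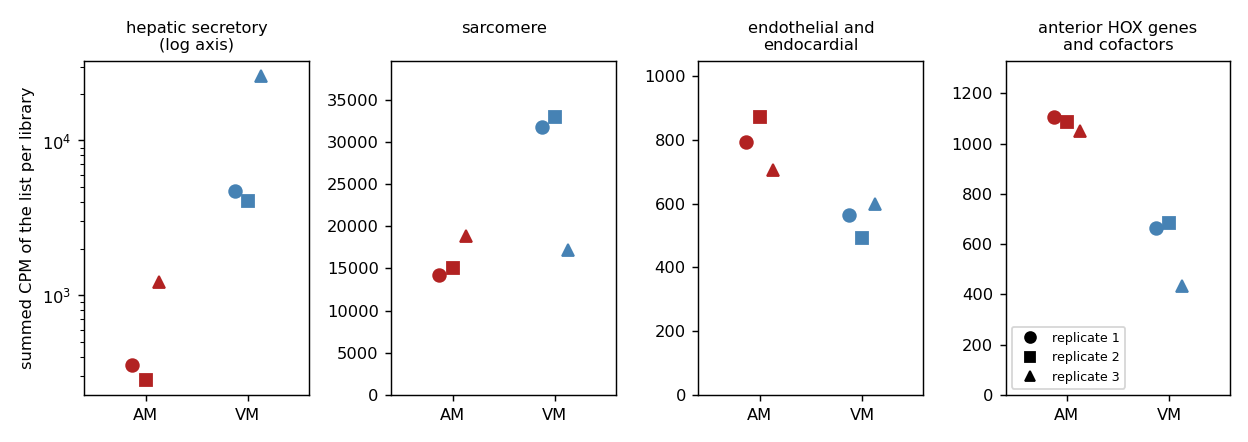
Summed CPM of 4 gene lists in each library (AM red, VM blue; circle, square and triangle for replicates 1, 2 and 3; the first panel has a log axis, the others start at 0). VM replicate 3 is the highest library for the hepatic list and lies among the AM libraries for the sarcomere list, while the 3 VM libraries lie below the 3 AM libraries for the endothelial and the HOX list.

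Between the protocols 1571 of 17724 genes were called, or 8.86% of those tested, of which 845 were higher in AM (4.77%) and 726 higher in VM (4.1%). At least a 2-fold difference was fitted for 566 of the genes higher in AM and 479 of those higher in VM, and at least an 8-fold difference for 147 and 150. With the replicate number as a block 2642 genes were called (14.9%), 1391 of them higher in AM (7.85%) and 1251 higher in VM (7.06%), and 1569 of the 1571 were among them. Scaling to library size alone, which moved the median of all genes by 0.089 on the log2 scale, put 64.7% of its 1756 calls on the AM side, against 53.8% here. Without replicate 3 of every group 1442 of 18055 genes were called (7.99%, with 4.23% higher in AM and 3.76% higher in VM), 1097 of them shared with the full set. Leaving out single libraries gave 1031 calls without AM replicate 1 (393 higher in VM) and 1051 without AM replicate 2 (432 higher in VM). In 23.5% of all tested genes the CPM of the 2 groups did not overlap, and in 1544 of the 1571 called genes they did not.

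**Figure D2:**
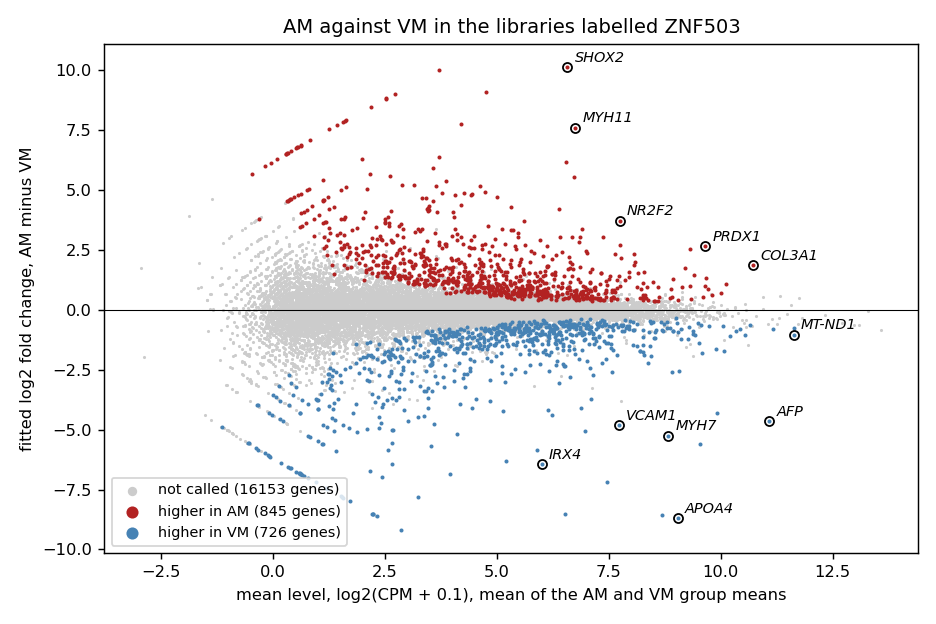
Fitted log2 fold change (AM minus VM) against the mean level of each of the 17724 tested genes on a log2(CPM + 0.1) scale; red genes were called higher in AM, blue ones higher in VM, grey ones not called. SHOX2, MYH11 and NR2F2 lie at the top, APOA4, IRX4, MYH7 and VCAM1 at the bottom, and the slanted rows of points on the left are genes with no count in 1 of the groups.

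The targeted gene ZNF503 was read in every library first. In the libraries labelled ZNF503 its level was 255, 367 and 269 CPM in AM and 45.3, 42.7 and 19.1 CPM in VM, against 103, 111 and 123 CPM in AM and 8.82, 14.6 and 16.2 CPM in VM of the TRAC control. Every library labelled ZNF503 was thus above the 3 control libraries of the same protocol, so the label is not borne out by a lower RNA level, and counts over the whole gene do not show whether the coding sequence is intact. ZNF503 differed between the protocols in the libraries labelled ZNF503 (log2 fold change 3.06, SE 0.29, adjusted p = 2.15e-07), and the fold change in TRAC was 3.07. Its paralog ZNF703 went from 34.3, 37.0 and 33.3 CPM in VM to 149, 205 and 130.2 CPM in AM (log2 fold change 2.21, SE 0.22, adjusted p = 1.17e-07). ZNF503-AS2, on the opposite strand beside ZNF503, was at 17.3, 20.0 and 14.5 CPM in AM and 2.58, 5.72 and 1.07 CPM in VM; strand use in the counting is not given in the sources used here, so reads of the pair may be shared.

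The markers of the 2 protocols separated the groups. NR2F2, the receptor that carries the mCherry reporter, was at 385, 373 and 441 CPM in AM and 26.0, 21.7 and 43.0 CPM in VM, with every AM library above every VM library (log2 fold change 3.72, SE 0.30, adjusted p = 2.77e-08). NR2F2 lies on chromosome 15 from 96325938 to 96340263 (GRCh38), and its antisense RNA NR2F2-AS1, which may share reads with it, was at 53.05, 38.1 and 52.7 CPM in AM and 1.41, 1.23 and 1.29 CPM in VM. IRX4, the ventricular Iroquois factor, was at 0.824, 1.65 and 1.86 CPM in AM and 147, 176 and 57.2 CPM in VM (log2 fold change -6.45, SE 0.64, adjusted p = 1.32e-06). The 3 VM libraries differed among themselves here, with VM replicate 3 the lowest, and it still lay far above every AM library.

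**Figure D3:**
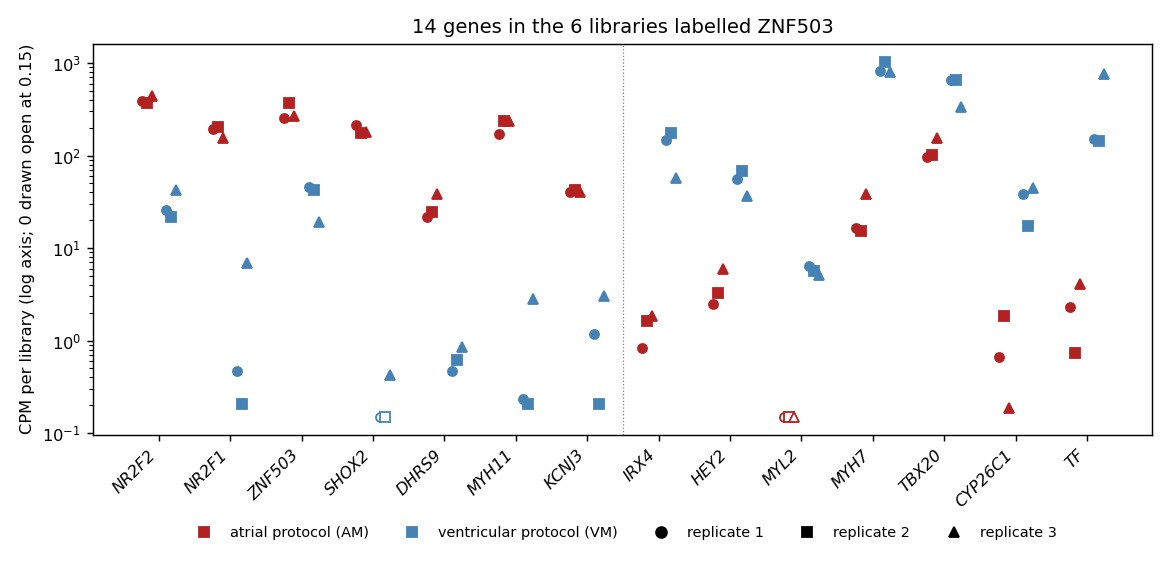
Level of 14 genes in each library in CPM on a log axis (AM red, VM blue; circle, square and triangle for replicates 1, 2 and 3; a value of 0 is drawn open at 0.15). For the 7 genes left of the dotted line every AM library lies above every VM library, and for the 7 genes right of it the order is turned.

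Among 17 genes of atrial identity 9 were called higher in AM and 3 higher in VM (median log2 fold change 0.96, against 0.00 over all tested genes). Over all tested genes 4.77% were called higher in AM and 4.1% higher in VM. These are the shares to set beside the counts of this and every later list. The called transcription factors were all higher in AM. NR2F1, the paralog of NR2F2, was at 195, 202 and 157 CPM in AM and 0.469, 0.204 and 6.88 CPM in VM (log2 fold change 6.17, SE 0.74, adjusted p = 2.26e-05), with VM replicate 3 the highest of the VM libraries. HEY1, a Notch effector of the atria, rose from 32.8, 28.4 and 23.4 CPM in VM to 128, 150.5 and 89.9 CPM in AM (log2 fold change 2.12, SE 0.27, adjusted p = 9.93e-06). TBX5, a T-box factor of the atria and left ventricle, was at 129.7, 142 and 145 CPM in AM and 88.0, 95.6 and 55.2 CPM in VM, a smaller difference without overlap (log2 fold change 0.80, SE 0.21, adjusted p = 0.0134).

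Several atrial ion channel genes also rose. KCNJ3, a subunit of the acetylcholine-gated potassium channel of the atria, was at 40.7, 42.1 and 40.1 CPM in AM and 1.17, 0.204 and 3.01 CPM in VM (log2 fold change 4.79, SE 0.61, adjusted p = 1.38e-05). KCNA5, which carries the ultrarapid repolarising current of atrial cells, was at 60.3, 82.6 and 50.5 CPM in AM and 12.4, 19.6 and 13.3 CPM in VM (log2 fold change 2.09, SE 0.33, adjusted p = 1.40e-04). CACNA1D, the L-type calcium channel of atrial and pacemaker cells, was at 236, 205 and 197 CPM in AM and 78.1, 65.2 and 55.4 CPM in VM (log2 fold change 1.68, SE 0.23, adjusted p = 1.85e-05). VSNL1, a calcium sensor, and SLN, the regulator of the calcium pump of atrial muscle, were called higher in AM from low levels. SLN was read at 5.93, 7.32 and 3.53 CPM in AM and 0, 0.409 and 0.645 CPM in VM.

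Not every gene of the atrial list followed. The atrial light chains MYL7 and MYL4 fell. MYL7 was at 301, 361 and 725 CPM in AM and 1375, 1724 and 1233 CPM in VM (log2 fold change -1.64, SE 0.34, adjusted p = 0.00309). MYL4 was at 272, 318 and 431 CPM in AM and 624, 825 and 449.9 CPM in VM (log2 fold change -0.90, SE 0.26, adjusted p = 0.0341). KCNJ5, the partner of KCNJ3 in the same channel, fell as well, from 42.9, 58.6 and 34.2 CPM in VM to 9.72, 12.1 and 27.1 CPM in AM (log2 fold change -1.48, SE 0.41, adjusted p = 0.0232). MYH6, the atrial heavy chain, was at 5026, 5632 and 8270.0 CPM in AM and 11141, 13081 and 4939 CPM in VM, and VM replicate 3 lay below the AM libraries (log2 fold change -0.62, SE 0.35, adjusted p = 0.357). MYH6, without replicate 3 of every group, was called lower in AM (log2 fold change -1.18, adjusted p = 5.89e-04). MYH6 and MYH7 are near-identical neighbours, and how reads that match both were counted is not given in the sources used here. NPPA, the atrial natriuretic peptide, was low in all libraries, at 2.80, 4.21 and 4.83 CPM in AM and 7.98, 10.6 and 23.4 CPM in VM, and was not called. With 1 library left out, the adjusted p rose to 0.0983 for TBX5 without VM replicate 3, 0.192 for MYL4 without VM replicate 2 and 0.132 for KCNJ5 without AM replicate 1. Among the other fits with every library kept, the adjusted p rose to 0.0767 for MYL4 with the 6 libraries alone with a replicate block and 0.0651 for KCNJ5 with the 6 libraries alone with a replicate block. Leaving replicate 3 out of every group gave an adjusted p of 0.0590 for TBX5.

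Of 15 genes of ventricular identity 9 were called higher in VM and 2 higher in AM (median log2 fold change -1.26). MYL2, the ventricular regulatory light chain, had no count in AM and stood at 6.33, 5.72 and 5.16 CPM in VM (log2 fold change -7.84, SE 1.24, adjusted p = 2.92e-04). That fitted value rests on the count added in the fit. Against a floor of 3 counts over the AM group MYL2 was at least 32.3-fold higher in VM. MYH7, the slow heavy chain of the ventricle, was at 16.5, 15.2 and 38.4 CPM in AM and 824, 1034 and 795 CPM in VM (log2 fold change -5.24, SE 0.60, adjusted p = 1.38e-05), so that the lowest VM library was far above the highest AM library. HEY2, the repressor of the atrial programme in ventricular cells, was at 2.47, 3.30 and 5.94 CPM in AM and 55.6, 68.8 and 37.0 CPM in VM (log2 fold change -3.79, SE 0.42, adjusted p = 1.23e-06). MYL3, the ventricular essential light chain, was at 86.2, 121 and 231 CPM in AM and 416, 547 and 281 CPM in VM (log2 fold change -1.51, SE 0.38, adjusted p = 0.0147), where VM replicate 3 lay closest to AM. GJA1, the main connexin of working muscle, and FHL2, a sarcomere-linked LIM protein, were also called higher in VM. In GJA1 (58.6, 69.6 and 72.4 CPM in AM and 102, 112 and 200.03 CPM in VM) VM replicate 3 was the highest library.

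The 2 genes of this list that went the other way were KCNJ2 and IRX5. KCNJ2, the inward rectifier that sets the resting potential and is known to be stronger in the ventricle, was at 30.8, 41.0 and 46.1 CPM in AM and 9.85, 12.7 and 9.67 CPM in VM (log2 fold change 1.87, SE 0.26, adjusted p = 1.63e-05). IRX5 rose from 11.7, 15.5 and 13.5 CPM in VM to 27.2, 41.2 and 18.9 CPM in AM (log2 fold change 1.09, SE 0.30, adjusted p = 0.0216). Within the Iroquois family of 6 genes 3 were called higher in VM, IRX1, IRX3 and IRX4, and 1 higher in AM, IRX5. IRX3, a factor of the ventricular conduction system, was at 47.9, 69.2 and 39.7 CPM in AM and 98.5, 109.9 and 102 CPM in VM (log2 fold change -0.98, SE 0.24, adjusted p = 0.0102). PLN, the phospholamban gene, was at 24.9, 12.1 and 46.4 CPM in AM and 90.6, 129.7 and 48.8 CPM in VM and HAND1, a factor of the left ventricle, at 14.7, 19.8 and 72.4 CPM in AM and 79.5, 86.6 and 89.0 CPM in VM, and neither was called (0.106 and 0.182 as adjusted p). Without replicate 3 both were called lower in AM, at an adjusted p of 0.0149 and 3.57e-05. When single libraries were left out, the adjusted p reached 0.0852 for MYL3 without AM replicate 1, 0.226 for GJA1 without VM replicate 3, 0.203 for IRX5 without AM replicate 2, 0.206 for IRX1 without AM replicate 1 and 0.0702 for IRX3 without AM replicate 3. In other fits of the full set the adjusted p was 0.181 for MYL3 with the 6 libraries alone with a replicate block and 0.264 for IRX1 with no filter on low counts. In the fit that leaves out replicate 3 of every group the adjusted p was 0.0756 for IRX1 and 0.169 for IRX3.

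Of 19 retinoid enzymes, binding proteins and receptors 3 were called higher in AM and 3 higher in VM. With the replicate block these counts were 6 and 3, and without replicate 3 they were 6 and 2. DHRS9, a retinol dehydrogenase, was at 21.9, 24.7 and 38.4 CPM in AM and 0.469, 0.613 and 0.859 CPM in VM, without overlap (log2 fold change 5.39, SE 0.37, adjusted p = 2.41e-10). CRABP2, which carries retinoic acid to its receptors, was at 262, 335 and 272 CPM in AM and 80.9, 117 and 169 CPM in VM (log2 fold change 1.24, SE 0.27, adjusted p = 0.00456). Of the enzymes that degrade retinoic acid CYP26A1 and CYP26C1 fell. CYP26C1 was at 0.659, 1.83 and 0.186 CPM in AM and 38.7, 17.2 and 44.9 CPM in VM (log2 fold change -5.20, SE 0.81, adjusted p = 2.44e-04). CYP26A1 had no count in the 3 AM libraries and stood at 0.938, 1.63 and 2.36 CPM in VM, near the level of 3 counts in a library (adjusted p = 0.0164). Its fitted log2 fold change of -6.06 (SE 1.58) rests on the count added in the fit and does not give the size of the difference. The receptor RXRG fell from 34.7, 56.2 and 46.0 CPM in VM to 12.03, 14.8 and 25.6 CPM in AM (log2 fold change -1.39, SE 0.25, adjusted p = 4.14e-04), and the other receptors of the RAR and RXR families were not called. ALDH1A1, an enzyme that makes retinoic acid, was at 86.0, 105 and 83.2 CPM in AM and 20.9, 21.0 and 118 CPM in VM: VM replicate 3 lay above the AM libraries, and the gene was called without replicate 3 (log2 fold change 2.19, adjusted p = 2.66e-06). Leaving out 1 library brought the adjusted p to 0.0647 for CYP26A1 without AM replicate 1.

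The anterior HOX genes, which retinoic acid is known to induce, were called in 1 direction. Of 20 HOX genes and cofactors 12 had enough counts for a test, 6 of them were called higher in AM and 0 higher in VM. HOXA2 had no count in any VM library, against 5.60, 3.11 and 6.87 CPM in AM. Against a floor of 3 counts over the VM group it was at least 23.9-fold higher in AM (adjusted p = 1.92e-04). HOXA3 was at 15.8, 11.2 and 15.4 CPM in AM and 0, 0 and 1.07 CPM in VM (log2 fold change 5.20, SE 0.63, adjusted p = 1.63e-05), with its VM reads in replicate 3 only. In the HOXB cluster HOXB4 was called, at 21.1, 17.0 and 10.8 CPM in AM and 4.46, 2.66 and 2.58 CPM in VM (log2 fold change 2.33, SE 0.41, adjusted p = 3.41e-04). The cofactor MEIS2, a homeodomain protein that binds DNA together with HOX proteins, was at 309, 286 and 268 CPM in AM and 156, 169 and 104 CPM in VM (log2 fold change 1.01, SE 0.20, adjusted p = 0.00133).

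Of 15 general cardiac transcription factors 4 were called higher in AM (GATA6, MEF2C, TBX5 and ISL1) and 2 higher in VM (NKX2-5 and TBX20). NKX2-5, the core cardiac homeobox factor whose locus holds the GFP reporter, was at 79.6, 98.9 and 115 CPM in AM and 225, 260.2 and 161 CPM in VM (log2 fold change -1.14, SE 0.25, adjusted p = 0.00410). TBX20, a T-box factor of chamber muscle, was at 97.2, 103 and 155 CPM in AM and 652, 663 and 334 CPM in VM (log2 fold change -2.22, SE 0.32, adjusted p = 6.23e-05). ISL1, the factor of second heart field progenitors and of the sinus node, was at 118, 106 and 100.1 CPM in AM and 23.0, 27.0 and 43.8 CPM in VM (log2 fold change 1.79, SE 0.26, adjusted p = 4.75e-05). GATA6 was at 163, 197 and 199 CPM in AM and 83.8, 105 and 65.5 CPM in VM (log2 fold change 1.14, SE 0.21, adjusted p = 6.41e-04). With the replicate block the counts of this list were 6 higher in AM and 4 higher in VM, and without replicate 3 they were 2 higher in AM and 5 higher in VM. Leaving replicate 3 out of every group gave an adjusted p of 0.0617 for MEF2C.

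Among sarcomere genes, which build the contractile filaments, more were called higher in VM than in AM. Of 19 tested 9 were called higher in VM and 2 higher in AM (median log2 fold change -1.04), and without replicate 3 the counts were 14 and 1. MYOZ2, a calsarcin of the Z-disc, was at 1.65, 1.65 and 7.43 CPM in AM and 54.2, 82.5 and 62.1 CPM in VM (log2 fold change -4.22, SE 0.59, adjusted p = 8.42e-05). XIRP1, an actin-binding protein of the intercalated disc, was at 106, 122 and 178 CPM in AM and 400.2, 559 and 385 CPM in VM (log2 fold change -1.73, SE 0.23, adjusted p = 1.63e-05). The Z-disc crosslinker ACTN2 was at 279.9, 244 and 478 CPM in AM and 757, 895 and 679 CPM in VM (log2 fold change -1.22, SE 0.22, adjusted p = 5.63e-04). LDB3, the Z-disc protein also called cypher, was at 124, 104 and 206 CPM in AM and 672, 679 and 289 CPM in VM (log2 fold change -1.92, SE 0.43, adjusted p = 0.00757). In these 4 genes the groups did not overlap. Titin (TTN), at 7833, 8724 and 9983 CPM in AM and 19493, 19167 and 8825 CPM in VM, cardiac troponin T (TNNT2), at 402, 248 and 286 CPM in AM and 654, 361 and 199 CPM in VM, and MYBPC3, at 262, 287 and 467 CPM in AM and 777, 887 and 427 CPM in VM, were not called; in the 3 of them VM replicate 3 was the lowest VM library. MYOM2, an M-band protein, rose in AM from 3.28, 2.66 and 2.79 CPM to 24.4, 31.1 and 35.5 CPM (log2 fold change 3.37, SE 0.36, adjusted p = 4.07e-07), and TNNI3, the troponin I of the mature heart, was called higher in AM at low levels, 7.74, 10.3 and 9.10 CPM in AM and 5.16, 2.04 and 3.22 CPM in VM. When single libraries were left out, the adjusted p reached 0.189 for TNNI3 without VM replicate 2. In other fits of the full set the adjusted p was 0.168 for LDB3 with the 6 libraries alone with a replicate block and 0.0753 for TNNI3 with the 6 libraries alone. In the fit that leaves out replicate 3 of every group the adjusted p was 0.210 for TNNI3.

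A motif of MEF2, the factor that drives many muscle genes, was found in a small share of the promoters of called genes. In the 250 bases before the RefSeq start (GRCh38.p14) the MEF2 consensus, searched on both strands, was found in 3.4% of 530 promoters of genes higher in VM, in 1.27% of 631 of genes higher in AM and in 1.05% of the 12430 tested genes that matched the table, or 1.8% of all 27195 promoters of that length. The motif was chosen after the calls were known and the shares are a description. A half-site of nuclear receptors, AGGTCA on either strand, was found in 10.8% of the promoters of genes higher in VM, 7.77% of those higher in AM and 8.57% of those tested, and the variant AGTTCA in 6.04%, 6.81% and 6.11%. The search for AGGTCA and that for AGTTCA count separate words. The promoters of 4 genes higher in VM are shown 5′ to 3′ in the direction of the gene, with the MEF2 match in capitals. Among the 8 genes higher in AM with a match were ATP2A2 and TECRL, a heart muscle gene, with log2 fold changes of 0.71 and 1.14; genes were picked for this paragraph after their values were seen. The 4 promoters shown are MYOZ2 (chr4:119135582-119135831, plus strand), XIRP1 (chr3:39192596-39192845, minus strand), HSPB7 (chr1:16018044-16018293, minus strand) and SMPX (chrX:21758117-21758366, minus strand).
MYOZ2: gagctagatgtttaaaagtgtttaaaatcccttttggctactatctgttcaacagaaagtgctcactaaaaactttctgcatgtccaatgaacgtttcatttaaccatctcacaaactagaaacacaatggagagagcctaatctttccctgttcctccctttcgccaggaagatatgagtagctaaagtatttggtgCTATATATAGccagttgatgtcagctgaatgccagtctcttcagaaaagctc
XIRP1: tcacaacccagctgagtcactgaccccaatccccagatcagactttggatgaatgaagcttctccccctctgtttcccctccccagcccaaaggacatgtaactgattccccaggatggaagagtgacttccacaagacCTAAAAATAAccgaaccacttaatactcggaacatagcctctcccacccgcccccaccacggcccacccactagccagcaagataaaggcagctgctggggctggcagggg
HSPB7: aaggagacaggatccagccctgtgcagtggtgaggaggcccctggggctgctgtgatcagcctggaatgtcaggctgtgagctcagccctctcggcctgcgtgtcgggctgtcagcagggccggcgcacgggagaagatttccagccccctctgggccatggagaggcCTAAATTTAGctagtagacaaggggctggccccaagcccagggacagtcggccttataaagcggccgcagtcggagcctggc
SMPX: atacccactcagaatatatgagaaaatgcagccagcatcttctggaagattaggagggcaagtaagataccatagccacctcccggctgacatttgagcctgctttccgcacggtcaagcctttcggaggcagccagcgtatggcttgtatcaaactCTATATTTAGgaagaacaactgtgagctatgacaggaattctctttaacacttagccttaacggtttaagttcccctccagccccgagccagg
The match begins 52 bases before the start in MYOZ2, 111 in XIRP1, 82 in HSPB7 and 93 in SMPX. HSPB7, a small heat shock protein of heart muscle, was at 254, 287 and 484 CPM in AM and 1069, 1594 and 892 CPM in VM (log2 fold change -1.79, SE 0.30, adjusted p = 3.44e-04). SMPX, a small muscle protein on the X chromosome, was at 35.7, 46.1 and 64.6 CPM in AM and 88.5, 154 and 104 CPM in VM (log2 fold change -1.25, SE 0.27, adjusted p = 0.00394). In these, as in MYOZ2 and XIRP1 above, every VM library lay above every AM library.

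Calcium handling was split. Of 16 genes 4 were called higher in AM and 5 higher in VM, and without replicate 3 the counts were 3 and 8. ATP2A2, the calcium pump of the sarcoplasmic reticulum, was at 1127, 1099 and 1598 CPM in AM and 750.1, 899 and 683 CPM in VM (log2 fold change 0.71, SE 0.18, adjusted p = 0.0119). The low-voltage calcium channel CACNA1G was at 76.1, 74.0 and 70.4 CPM in AM and 27.0, 32.5 and 7.31 CPM in VM (log2 fold change 1.72, SE 0.44, adjusted p = 0.0158). The L-type channel of working muscle, CACNA1C, was at 96.7, 89.2 and 91.4 CPM in AM and 353, 382 and 149 CPM in VM (log2 fold change -1.67, SE 0.38, adjusted p = 0.00800), with VM replicate 3 nearest to AM. JPH2, which anchors the sarcoplasmic reticulum to the surface membrane, was at 70.7, 91.9 and 119 CPM in AM and 252, 352 and 238 CPM in VM (log2 fold change -1.58, SE 0.23, adjusted p = 5.29e-05). The calcium release channel RYR2 was at 687, 698 and 967 CPM in AM and 1277, 1314 and 503 CPM in VM and was not called; VM replicate 3 lay below the AM libraries. The adjusted p depended on single libraries and was 0.113 for ATP2A2 without AM replicate 3 and 0.0501 for CACNA1G without AM replicate 1. Other settings, with every library kept, gave an adjusted p of 0.0530 for CACNA1G with the 6 libraries alone. When replicate 3 was left out throughout, the adjusted p was 0.164 for ATP2A2.

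Of 11 pacemaker genes 6 were called higher in AM and 0 higher in VM; with the replicate block TBX3 was called higher in VM (log2 fold change -0.47, adjusted p = 0.0264). SHOX2, a homeobox factor of the sinus node, had the largest rise among the genes named by rank: it was at 215, 174 and 181 CPM in AM, and its VM libraries held 2 counts, both in replicate 3. The ratio of the counts was 1319.8 with an exact 95% interval from 365 to 10902, which covers counting error only (adjusted p = 5.30e-07). TBX18, a factor of the sinus horns and the epicardium, was at 71.0, 62.2 and 55.2 CPM in AM and 4.93, 7.35 and 15.7 CPM in VM (log2 fold change 2.74, SE 0.69, adjusted p = 0.0160). The pacemaker channel HCN4, at 272, 369 and 422 CPM in AM and 446, 691 and 258 CPM in VM, and TBX3, a repressor of working-muscle genes in the node, at 37.4, 32.2 and 64.4 CPM in AM and 51.9, 42.9 and 91.5 CPM in VM, overlapped between the protocols and were not called. Of 15 potassium channels 4 were called higher in AM (KCNA5, KCNJ2, KCNJ3 and KCNK3) and 3 higher in VM (KCNJ5, KCNJ8 and KCNJ11). Of 8 genes of the natriuretic peptide system the clearance receptor NPR3 alone was called, higher in AM at 37.9, 37.5 and 68.9 CPM in AM and 20.4, 19.0 and 27.1 CPM in VM (log2 fold change 1.12, SE 0.21, adjusted p = 7.91e-04); with the replicate block 2 genes of this list were also called higher in VM. Of 6 connexin and sodium channel genes GJA1 alone was called. A single call in these 2 short lists does not set them apart from the 8.86% called over all tested genes. The atrial connexin GJA5 was at 14.2, 18.7 and 21.7 CPM in AM and 11.3, 13.5 and 6.45 CPM in VM (adjusted p = 0.208). With 1 library left out, the adjusted p rose to 0.0804 for TBX18 without VM replicate 1, 0.190 for KCNK3 without VM replicate 3, 0.0560 for KCNJ8 without AM replicate 2 and 0.198 for KCNJ11 without AM replicate 1. Among the other fits with every library kept, the adjusted p rose to 0.0618 for KCNK3 with the 6 libraries alone with a replicate block and 0.0732 for KCNJ11 with the 6 libraries alone. Leaving replicate 3 out of every group gave an adjusted p of 0.327 for KCNK3 and 0.118 for KCNJ11.

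Signalling genes changed in small sets. In the Notch pathway, 14 genes, the ligand JAG1 was at 716, 749 and 608 CPM in AM and 297, 231 and 321 CPM in VM (log2 fold change 1.29, SE 0.16, adjusted p = 3.19e-06), and the receptors NOTCH3 and NOTCH4 and the effector HEY1 were also called higher in AM, while the effector HEY2 was called higher in VM. In the BMP pathway 3 of 17 were called higher in AM and 3 higher in VM. The ligand BMP4 was at 121, 99.0 and 177 CPM in AM and 19.5, 19.2 and 42.1 CPM in VM (log2 fold change 2.29, SE 0.35, adjusted p = 1.79e-04), BMP7 at 136, 146 and 211 CPM in AM and 71.8, 91.7 and 93.2 CPM in VM (log2 fold change 0.94, SE 0.18, adjusted p = 7.65e-04), and the receptor BMPR1B was called as well. The extracellular BMP inhibitor NOG and the intracellular inhibitor SMAD6 were among those called higher in VM, with NOG at 0.659, 3.84 and 4.27 CPM in AM and 10.3, 6.74 and 18.0 CPM in VM (log2 fold change -2.00, SE 0.50, adjusted p = 0.0104). Without replicate 3 the BMP counts were 3 and 1. When single libraries were left out, the adjusted p reached 0.255 for NOTCH3 without AM replicate 2, 0.133 for BMPR1B without VM replicate 2, 0.0825 for NOG without VM replicate 3 and 0.0544 for SMAD6 without AM replicate 1. In other fits of the full set the adjusted p was 0.134 for NOTCH3 with the 6 libraries alone, 0.0934 for BMPR1B with the 6 libraries alone with a replicate block and 0.0533 for NOG with the 6 libraries alone. In the fit that leaves out replicate 3 of every group the adjusted p was 0.0631 for NOTCH4 and 0.0641 for NOG.

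In the WNT pathway 4 of 17 were called higher in AM and 5 higher in VM. The receptor FZD7 was at 321, 419 and 382 CPM in AM and 48.8, 52.5 and 73.1 CPM in VM (log2 fold change 2.69, SE 0.23, adjusted p = 1.55e-08), and the secreted WNT inhibitors SFRP1 and SFRP5 rose too, SFRP5 from 4.93, 4.09 and 19.6 CPM in VM to 66.2, 102 and 68.9 CPM in AM (log2 fold change 3.05, SE 0.56, adjusted p = 0.00131). The noncanonical ligands WNT5A, WNT5B and WNT11 were called higher in VM; WNT5B was at 3.46, 5.67 and 2.04 CPM in AM and 23.2, 32.7 and 31.8 CPM in VM (log2 fold change -2.96, SE 0.36, adjusted p = 3.49e-06) and WNT11 at 4.45, 4.94 and 9.29 CPM in AM and 19.5, 22.7 and 25.1 CPM in VM (log2 fold change -1.85, SE 0.41, adjusted p = 0.00365). RSPO3, which amplifies WNT signals, was at 26.4, 30.9 and 41.2 CPM in AM and 66.2, 80.3 and 84.9 CPM in VM (log2 fold change -1.23, SE 0.18, adjusted p = 4.39e-05). Of 12 second heart field and pharyngeal genes ISL1 and FOXC1 were called higher in AM, and FGF10 and WNT11 higher in VM; without replicate 3 the counts were 4 and 2. Leaving out 1 library brought the adjusted p to 0.109 for WNT4 without AM replicate 3, 0.0702 for WNT5A without AM replicate 3, 0.194 for FOXC1 without AM replicate 2 and 0.0848 for FGF10 without VM replicate 2. Another fit to every library gave an adjusted p of 0.0617 for SFRP5 with the 6 libraries alone with a replicate block, 0.0826 for DKK3 with the 6 libraries alone with a replicate block and 0.176 for FOXC1 with the 6 libraries alone with a replicate block. The fit without replicate 3 gave an adjusted p of 0.0919 for WNT4.

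**Figure D4:**
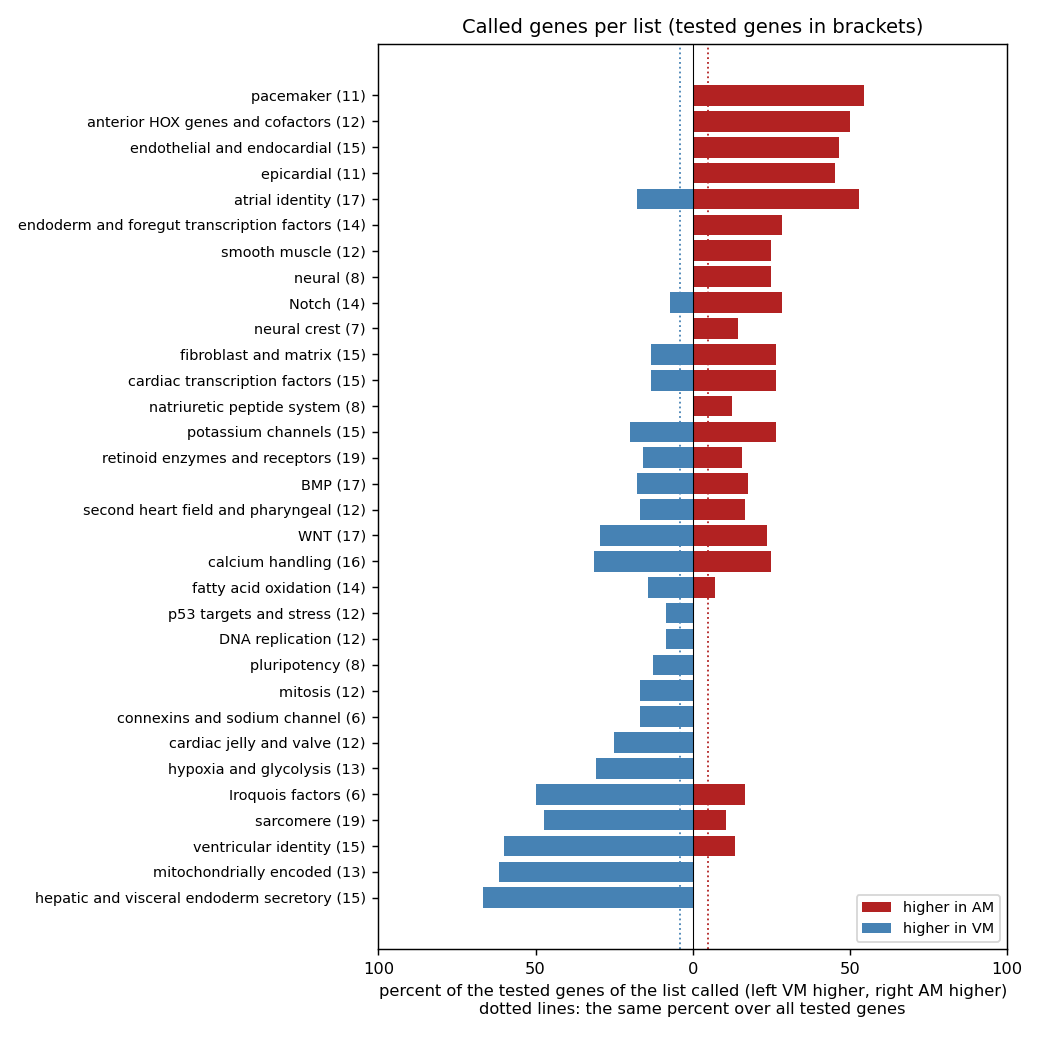
Share of the tested genes of each list (lists with at least 6 tested genes, 32 in the plot) called higher in AM (red, to the right) or higher in VM (blue, to the left); the dotted lines are the shares over all tested genes, 4.77% and 4.1%. The pacemaker, HOX, endothelial, epicardial and atrial lists have the longest red bars, and the hepatic, mitochondrial, ventricular, Iroquois and sarcomere lists the longest blue ones.

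Markers of cells other than heart muscle moved as well. Of 15 tested endothelial and endocardial genes 7 were called higher in AM and 0 higher in VM, with the replicate block 8 and 1. CDH5, the cadherin of endothelial junctions, was at 85.7, 94.1 and 70.2 CPM in AM and 54.0, 39.0 and 29.7 CPM in VM (log2 fold change 1.03, SE 0.24, adjusted p = 0.00570). TIE1, an endothelial receptor, was at 59.5, 57.3 and 46.1 CPM in AM and 26.5, 22.7 and 21.3 CPM in VM (log2 fold change 1.21, SE 0.19, adjusted p = 8.01e-05). STAB2, a scavenger receptor of endocardial and sinusoidal endothelium, was at 37.2, 37.0 and 3.90 CPM in AM, with replicate 3 far below the other two, and had no count in VM. That was at least 122-fold against 3 counts over the VM group (adjusted p = 0.0104). PECAM1, KDR and FLT1, which mark most endothelial cells, were not called, with PECAM1 at 43.0, 53.5 and 46.1 CPM in AM and 37.3, 35.5 and 49.0 CPM in VM. The summed level of the list was 794, 873 and 706 CPM in AM and 564, 493 and 600.1 CPM in VM. The adjusted p depended on single libraries and was 0.0821 for ERG without VM replicate 3 and 0.203 for EGFL7 without AM replicate 2. Other settings, with every library kept, gave an adjusted p of 0.104 for STAB2 with the 6 libraries alone and 0.0791 for EGFL7 with the 6 libraries alone. When replicate 3 was left out throughout, the adjusted p was 0.0906 for ERG.

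Of 11 tested epicardial genes 5 were called higher in AM. TCF21, a factor of epicardial derivatives, was at 39.9, 34.4 and 16.7 CPM in AM and 0.235, 2.04 and 3.01 CPM in VM (log2 fold change 4.06, SE 0.71, adjusted p = 5.32e-04), and BNC1, BNC2, SEMA3D and TBX18 were the others. With the replicate block 2 epicardial genes were also called higher in VM. The epicardial marker WT1 was near the level of 3 counts in a library in both protocols, at 0.659, 2.93 and 0.557 CPM in AM and 0.469, 1.43 and 1.72 CPM in VM. Of 15 fibroblast and matrix genes 4 were called higher in AM and 2 higher in VM, and without replicate 3 the counts were 8 and 2. PDGFRA, the receptor of mesenchymal progenitors, was at 465, 442 and 441 CPM in AM and 93.4, 104 and 67.5 CPM in VM (log2 fold change 2.35, SE 0.19, adjusted p = 4.96e-09). The fibrillar collagen COL3A1 was at 2303, 3402 and 2218 CPM in AM and 592, 484 and 1103 CPM in VM (log2 fold change 1.86, SE 0.39, adjusted p = 0.00380). The crosslinking enzyme LOX was higher in VM, at 3.13, 1.65 and 6.69 CPM in AM and 22.3, 12.1 and 71.3 CPM in VM (log2 fold change -3.20, SE 0.92, adjusted p = 0.0374), with its highest value in VM replicate 3. With 1 library left out, the adjusted p rose to 0.111 for SEMA3D without VM replicate 1, 0.179 for COL6A3 without VM replicate 2, 0.0969 for COL5A1 without AM replicate 1 and 0.229 for LOX without VM replicate 3. Among the other fits with every library kept, the adjusted p rose to 0.187 for SEMA3D with the 6 libraries alone with a replicate block, 0.0620 for COL6A3 with the filter at 1 CPM and 0.0697 for LOX with the 6 libraries alone.

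Of 12 smooth muscle genes 3 were called higher in AM and 0 higher in VM, with the replicate block 4 and 1. MYH11, the smooth muscle heavy chain, was at 171, 239 and 234 CPM in AM and 0.235, 0.204 and 2.79 CPM in VM (log2 fold change 7.60, SE 0.66, adjusted p = 4.07e-07). SYNPO2 was at 192, 199 and 229 CPM in AM and 28.6, 32.9 and 13.3 CPM in VM (log2 fold change 3.05, SE 0.39, adjusted p = 2.93e-05), while ACTA2, at 405, 445 and 712 CPM in AM and 342, 340.1 and 342 CPM in VM, and TAGLN, at 55.8, 58.4 and 50.3 CPM in AM and 118, 107 and 249 CPM in VM, were not called. The cardiac jelly and valve list had 3 of 12 genes called, all higher in VM (with the replicate block 1 more was called, higher in AM): HAS2, which makes hyaluronan, its receptor CD44, and TBX2, the repressor of the atrioventricular canal, at 21.9, 29.5 and 40.1 CPM in AM and 117, 117 and 103 CPM in VM (log2 fold change -1.88, SE 0.23, adjusted p = 4.24e-06). Of 8 tested neural genes DCX and MAP2 were called higher in AM, with MAP2 at 44.5, 46.1 and 40.7 CPM in AM and 3.28, 6.33 and 10.5 CPM in VM (log2 fold change 2.69, SE 0.44, adjusted p = 2.29e-04), and ETS1 was the only 1 of 7 neural crest genes called (3 higher in AM and 1 higher in VM with the replicate block). Of the skeletal muscle list 2 of 7 genes could be tested, and PAX3 was called, with no count in AM and 2.11, 2.25 and 4.08 CPM in VM. Over all tested genes 8.86% were called, and the single calls in the neural crest and skeletal muscle lists do not set these lists apart from that share. Of 10 blood genes 3 could be tested, and TAL1 and LMO2 were called higher in AM, 1 of them without replicate 3. The part of these other cell types in the results above was not tested. When single libraries were left out, the adjusted p reached 0.0632 for DCX without AM replicate 2, 0.177 for TAL1 without VM replicate 2 and 0.104 for LMO2 without VM replicate 1. In other fits of the full set the adjusted p was 0.0591 for TAL1 with the 6 libraries alone. In the fit that leaves out replicate 3 of every group the adjusted p was 0.0620 for LMO2.

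Genes of liver-type secreted proteins fell in AM by the lowest median of the 35 lists. They are products of hepatocytes and of visceral endoderm, and 10 of 15 were called higher in VM, 0 higher in AM (median log2 fold change -4.64). APOA4, an apolipoprotein, was at 0.165, 1.10 and 6.500 CPM in AM and 299.6, 304 and 2558 CPM in VM (log2 fold change -8.70, SE 1.93, adjusted p = 0.00803). AHSG, a fetal plasma glycoprotein, was at 0, 1.10 and 5.57 CPM in AM and 335, 322 and 1807 CPM in VM (log2 fold change -8.56, SE 1.61, adjusted p = 0.00217). Transferrin (TF) was at 2.31, 0.732 and 4.09 CPM in AM and 151, 144 and 761 CPM in VM (log2 fold change -7.20, SE 1.14, adjusted p = 4.74e-04). Alpha-fetoprotein (AFP) was at 97.5, 76.7 and 329 CPM in AM and 1521, 1522 and 9499.8 CPM in VM (log2 fold change -4.64, SE 1.15, adjusted p = 0.0159). In each of these 4 genes the AM and VM libraries did not overlap, VM replicate 3 was several times higher than VM replicates 1 and 2, and AM replicate 3 was the highest AM library. APOC3, ALB, SERPINA1 and RBP4 of this list, and plasminogen (PLG), a liver product outside it, also stood among the 12 largest falls. SERPINA1 was at 21.6, 25.4 and 42.9 CPM in AM and 616, 532 and 3242 CPM in VM.

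Without replicate 3 of every group 14 of the 15 were called higher in VM, and with the replicate block 13. Without replicate 3 APOA4 had a log2 fold change of -8.89 (adjusted p = 4.50e-10) and AFP of -4.12 (adjusted p = 5.60e-09). Leaving out 1 library brought the adjusted p to 0.0661 for PLG without AM replicate 1, 0.192 for RBP4 without VM replicate 3 and 0.0846 for AFP without AM replicate 2. Another fit to every library gave an adjusted p of 0.0719 for APOA4 with the 6 libraries alone, 0.0512 for AHSG with the 6 libraries alone, 0.0860 for ALB with the 6 libraries alone, 0.0698 for PLG with the 6 libraries alone, 0.187 for RBP4 with the 6 libraries alone and 0.123 for AFP with the 6 libraries alone. Of 14 tested transcription factors of endoderm and foregut 4 were called higher in AM (SOX17, PDX1, RFX6 and ISL1) and 0 higher in VM, with the replicate block 6 and 0, and without replicate 3 6 and 1. PDX1, a factor of the foregut and pancreas, was at 18.6, 22.9 and 9.66 CPM in AM and 1.41, 0.204 and 3.22 CPM in VM (log2 fold change 3.39, SE 0.76, adjusted p = 0.00528), and RFX6, of the endocrine gut and pancreas, at 10.4, 8.42 and 15.4 CPM in AM with no count in VM (adjusted p = 9.24e-07). HNF4A, the factor of hepatocyte genes, was at 28.99, 22.2 and 30.3 CPM in AM and 20.4, 12.9 and 68.1 CPM in VM and was not called. FGB, a fibrinogen chain, was at 96.5, 73.2 and 286 CPM in AM and 50.2, 61.9 and 526 CPM in VM, so that VM replicates 1 and 2 lay below the AM libraries and VM replicate 3 above them. When replicate 3 was left out throughout, the adjusted p was 0.118 for SOX17. The part of cells of this kind in the results for other genes was not tested.

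Genes outside these lists were named by rank among called genes whose groups did not overlap and whose higher group had 50 or more counts in each library. DACH2, a nuclear cofactor of the dachshund family, was at 53.9, 63.9 and 43.8 CPM in AM and had 1 count in VM, a ratio of 745 with an exact 95% counting interval from 133 to 29442 (adjusted p = 4.96e-09). LRRTM3, a synaptic adhesion protein, was at 37.9, 29.1 and 41.6 CPM in AM and had 2 counts in VM (adjusted p = 2.41e-10). C7, a complement component, was at 204, 231 and 185 CPM in AM and 3.99, 2.86 and 6.23 CPM in VM (log2 fold change 5.56, SE 0.33, adjusted p = 1.08e-10). The adhesion protein CDH12, the GABA receptor subunit GABRB2 and the phosphodiesterase PDE11A complete the 12 largest rises, with PDE11A at 69.5, 46.1 and 37.9 CPM in AM and 0.469, 2.66 and 1.72 CPM in VM (log2 fold change 4.93, SE 0.40, adjusted p = 4.68e-09). On the VM side VCAM1, an adhesion receptor of early heart muscle, was at 13.5, 11.3 and 18.9 CPM in AM and 412, 584 and 234 CPM in VM (log2 fold change -4.81, SE 0.40, adjusted p = 1.08e-07).

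Ranked by CPM, which favours long transcripts, the highest genes called higher in AM were COL3A1, PPP1R12B, PRDX1, ATP2A2, COL6A2 and SLIT2. PRDX1, a peroxide-reducing enzyme, was at 1195, 1539 and 1453 CPM in AM and 170.1, 226 and 268 CPM in VM (log2 fold change 2.66, SE 0.25, adjusted p = 8.30e-08). SLIT2, a guidance ligand of ROBO receptors, was at 1118, 1233 and 931 CPM in AM and 204, 152 and 205 CPM in VM (log2 fold change 2.55, SE 0.20, adjusted p = 3.04e-09). PPP1R12B, a regulatory subunit of myosin phosphatase, was at 1394, 1339 and 1813 CPM in AM and 715, 956 and 474 CPM in VM (log2 fold change 1.08, SE 0.24, adjusted p = 0.00347). Those called higher in VM were the mitochondrial MT-ND1, MT-ND4 and MT-ND5, AFP, COL2A1 and FLNC. The fibrillar collagen COL2A1 was at 852, 1143 and 929 CPM in AM and 2131, 2271 and 1589 CPM in VM (log2 fold change -1.04, SE 0.17, adjusted p = 1.34e-04). The muscle filamin FLNC was at 1255, 1331 and 1205 CPM in AM and 2128, 1971 and 1842 CPM in VM (log2 fold change -0.65, SE 0.13, adjusted p = 0.00131).

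The study's control allows the question whether the protocols differ in another way once ZNF503 is targeted. In the TRAC control 2003 genes were called between AM and VM (11.3%, with 6.18% higher in AM and 5.12% higher in VM). The comparisons have no library in common, but same-numbered libraries of ZNF503 and TRAC deviated together (correlations of 0.382, 0.207 and 0.488 in AM and 0.638, 0.621 and 0.786 in VM), so they share replicate effects and are not independent. Of these, 1174 were called in both, 74.7% of the genes called in ZNF503 and 58.6% of those called in TRAC, and all 1174 had the same direction. With the replicate block 19.4% of genes were called in TRAC (10.2% higher in AM, 9.2% higher in VM), and without replicate 3 8.72% (5.07% and 3.64%). The difference between the 2 genotypes, tested as an interaction, was called for 0 of 17724 genes by edgeR and by DESeq2. In edgeR 346 genes (1.95%) had an unadjusted p below 0.05, and 738 with the replicate block, which called 0 as well. The 1.95% is less than the share of 0.05 that an exact test gives where no gene differs. The main fit was thus conservative here, and its 0 calls do not show equal protocol differences. Against the mean of TRAC, LHX2 and ZNF711 the difference was called for 0 genes, with 505 at an unadjusted p below 0.05. With the replicate block these were 0 and 1006, and the lowest adjusted p was 0.344. In simulated counts an interaction was recovered for 14 of 100 genes at a log2 difference of 1 and for 52 of 100 at a log2 difference of 2. Differences of either size may thus have been missed. Unlike the data, the simulated counts held no protocol difference in other genotypes and no replicate effect.

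The fold changes of the markers were set side by side. NR2F2 had a log2 fold change of 3.72 in ZNF503, 3.91 in TRAC, 3.70 in LHX2 and 2.45 in ZNF711, and IRX4 of -6.45, -6.22, -7.13 and -4.11. For NR2F2 the difference from TRAC was -0.19 (SE 0.40). Among 388 distinct list genes 13 had an unadjusted p of the difference below 0.05, none of them called, against 1.95% of all tested genes. The DNA replication list held 3 of the 13, the endothelial and the hypoxia list 2 each, and the ventricular list 1, MYH7. The log2 fold change of MYH7 was -5.24 in ZNF503, -3.36 in TRAC, -4.02 in LHX2 and -2.31 in ZNF711. Its difference from TRAC was -1.88 (SE 0.73, unadjusted p = 0.0191). HOXA3 had log2 fold changes of 5.20 in ZNF503 and 9.21 in TRAC (unadjusted p of the difference 0.0162). Its mean in AM was 14.1 CPM in ZNF503 and 14.8 CPM in TRAC. In VM it had 5 counts in ZNF503, all in replicate 3, and a mean of 0 CPM in TRAC. The 9.21 thus rests on the count added in the fit.

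**Figure D5:**
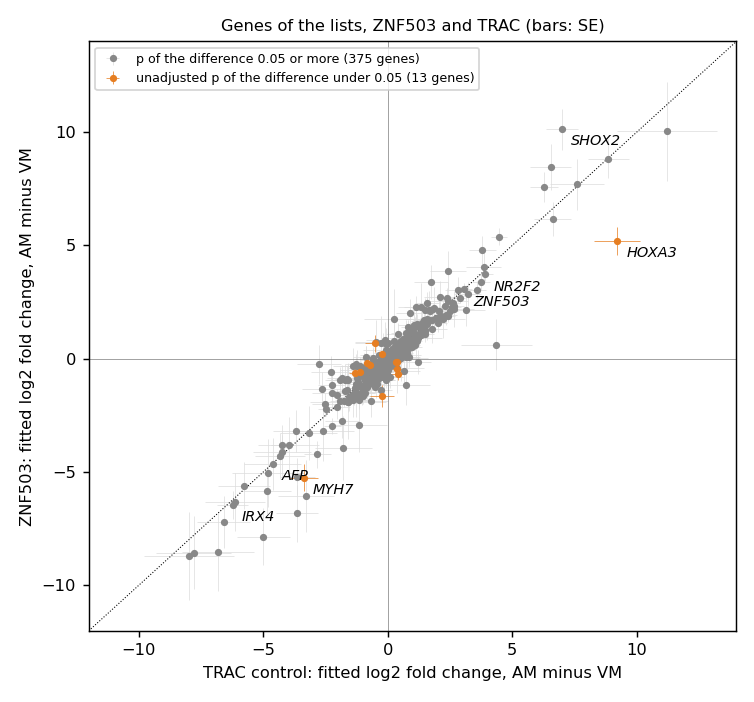
Fitted log2 fold change (AM minus VM) of the 388 tested list genes in ZNF503 (vertical) against TRAC (horizontal); bars are SE, the dotted line marks equal values, and the 13 genes in orange have an unadjusted p of the difference below 0.05. Most points follow the dotted line, MYH7 lies below it, and no gene was called different.

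Without replicate 3 of every group the difference from TRAC was again called for 0 genes, and that from the mean of the other 3 genotypes for 10 (0.0554%), all with a lower ratio of AM to VM in ZNF503: ABCC9, ADGRG2, KCNIP2, LAMA2, LDB3, MYBPC3, MYH7, MYL3, MYLK3 and RYR2. These genes were named after their values were seen. In that fit MYH7 had log2 fold changes of -5.87 in ZNF503, -4.40 in TRAC, -4.85 in LHX2 and -2.40 in ZNF711, a difference of -1.98 (SE 0.29, adjusted p = 0.0162). LDB3 had -2.56, -2.10, -2.13 and 0.12, a difference of -1.19 (SE 0.18, adjusted p = 0.0162). For each of the 10 genes ZNF711 stood farther from ZNF503 than TRAC and LHX2 did. With replicate 3 the adjusted p of each was 0.9999.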

How the data were processed

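The authors deposited 1 table of raw counts per gene for 24 libraries, aligned with STAR to GRCh38 per the submitters' processing notes; the counting tool, its use of strand and the annotation release are not given in the sources used here. Genes were filtered with filterByExpr and tested with edgeR 4.0.16 (quasi-likelihood, robust, TMM, 1 mean per group over all 24 libraries, 16 residual degrees of freedom), in R 4.3.3. The counts as deposited were not otherwise changed. Alternatives were other scalings and filters, DESeq2 1.42.0, a replicate block, the compared libraries alone, and libraries left out. Deviations of same-numbered AM and VM libraries correlated (0.438, 0.125 and 0.173 over 11428 genes), and differently numbered ones gave -0.297 to 0.065. The evidence that the numbers pair AM with VM libraries was thus weak for replicates 2 and 3. Within a protocol these same-numbered libraries of ZNF503 and TRAC correlated at 0.207 and 0.488 in AM and at 0.621 and 0.786 in VM. The labels state no pairing, and the main fit does not use it. Genes were named as markers, as the 12 largest rises and falls and the 6 highest levels on each side among called genes without overlap and with 50 or more counts in each library on the higher side, as genes called in an interaction (none), or from 35 gene lists. Some members of the lists are not reported here by name. Members and lists were chosen with earlier results of these data known. On the same simulated data, without replicate effects, the AM against VM test recovered 35 of 100 genes changed by a log2 of 1 and 67 of 100 by a log2 of 2. Intervals and floors cover counting error only.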

Additional observations from a re-analysis of the deposited data

How the results depend on the processing

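The replicate block, which pairs libraries by number, raised the calls from 1571 to 2642 (1391 higher in AM, 1251 higher in VM), and in TRAC from 2003 to 3430 (1800 and 1630); with the TRAC libraries alone 995 were called (603 and 392). With a library or a replicate number left out the calls ranged from 1031 to 1442 (591 to 763 higher in AM, 393 to 679 higher in VM), and in TRAC from 1147 to 1812 (699 to 1019 and 448 to 900); the cause was not tested, beyond the smaller number of samples. Without the filter on low counts the difference from TRAC was called for 3 genes, all with a lower ratio in ZNF503, and that from the mean of the other 3 genotypes for 36 (5 higher, 31 lower). With libraries or replicate numbers left out the latter ranged from 0 to 10, the 10 without replicate 3 and all lower. Of all 1571 called genes 1024 were called in each fit to every library, and 737 with each single ZNF503 library left out. A gene without a test in a fit counted as not called there. Among 179 named genes, picked for the text, 154 were called. Of these, 116 kept the call in each fit to every library and 100 with each single library left out. The call was lost for 24 without replicate 3, and 0 changed sign. Of the other 25 genes 5 changed sign. The log2 fold change of FGB was 0.061 with the 6 libraries alone and a replicate block and ranged from -1.32 to 1.43 with libraries left out, that of HCN4 from -0.82 to 0.013, that of HNF4A from -0.70 to 0.71, that of TNNT2 from -0.70 to 0.16 and that of WT1 from -0.97 to 0.87. The other alternatives left each of these counts within 1.5 times. Depth limits genes near 3 counts.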

Other observations

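Transcripts of the mitochondrial genome, which encode subunits of the respiratory chain, were lower in AM. Of 13 tested 8 were called higher in VM and 0 higher in AM (median log2 fold change -0.72). MT-ND1, a subunit of complex I, was at 1999, 1386 and 2849.6 CPM in AM and 3748, 4508 and 4531 CPM in VM (log2 fold change -1.04, SE 0.21, adjusted p = 0.00145), with AM replicate 3 nearest to VM. The summed level of the list was 17807, 12147 and 26750.0 CPM in AM and 27955, 35514 and 31417 CPM in VM. The labels name both a poly(A) and a ribosomal RNA depletion step, so the share of mitochondrial RNA that the libraries captured is not known. When single libraries were left out, the adjusted p reached 0.178 for MT-ND4 without AM replicate 2 and 0.167 for MT-ND5 without AM replicate 2. In other fits of the full set the adjusted p was 0.110 for MT-ND4 with the 6 libraries alone and 0.0975 for MT-ND5 with the 6 libraries alone.

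Of 13 tested genes of hypoxia and glycolysis 4 were called higher in VM, PFKP, PDK1, VEGFA and BNIP3, and 0 higher in AM; with the replicate block 7 were. PDK1, the kinase that turns off pyruvate dehydrogenase, was at 150.1, 129.8 and 212 CPM in AM and 435, 522 and 389 CPM in VM (log2 fold change -1.45, SE 0.21, adjusted p = 3.21e-05), and the blood vessel growth factor VEGFA at 359, 342 and 314 CPM in AM and 511, 459 and 555 CPM in VM (log2 fold change -0.59, SE 0.14, adjusted p = 0.00737). In fatty acid oxidation, 14 genes, CPT1A was called higher in AM at 70.0, 101 and 87.7 CPM in AM and 53.5, 59.8 and 37.2 CPM in VM, and CPT2 and FABP3, the fatty acid carrier of heart muscle, higher in VM, with FABP3 at 31.3, 35.0 and 62.6 CPM in AM and 75.3, 99.7 and 83.8 CPM in VM (log2 fold change -1.01, SE 0.27, adjusted p = 0.0173); with the replicate block 4 were higher in VM. Leaving out 1 library brought the adjusted p to 0.161 for BNIP3 without AM replicate 1, 0.194 for CPT1A without VM replicate 3, 0.127 for CPT2 without AM replicate 2 and 0.114 for FABP3 without AM replicate 1. Another fit to every library gave an adjusted p of 0.0531 for CPT2 with no filter on low counts. The fit without replicate 3 gave an adjusted p of 0.123 for VEGFA and 0.164 for CPT1A.

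Of 12 mitosis genes AURKA and BUB1 were called higher in VM, 0 were without replicate 3, and the summed level was 300.0, 404 and 317 CPM in AM and 480.3, 432 and 545 CPM in VM. TYMS was the only 1 of 12 DNA replication genes called. CDKN1A, the cell cycle inhibitor, was the only 1 of 12 p53 targets called. It was higher in VM, at 114, 137 and 127 CPM in AM and 174, 218 and 286 CPM in VM. Of the p53 targets 2 were called with the replicate block and 0 without replicate 3. Over all tested genes 8.86% were called, and a single call in lists this short does not set them apart from that share. TDGF1, a marker of undifferentiated cells, was the only 1 of 8 tested pluripotency genes called, at 0.329, 0 and 0.186 CPM in AM and 10.3, 20.4 and 3.65 CPM in VM (log2 fold change -5.84, SE 1.03, adjusted p = 4.91e-04); with the replicate block 1 was also called higher in AM. The adjusted p depended on single libraries and was 0.129 for AURKA without AM replicate 1, 0.0884 for BUB1 without AM replicate 3 and 0.144 for CDKN1A without VM replicate 3. Other settings, with every library kept, gave an adjusted p of 0.0516 for AURKA with the 6 libraries alone. When replicate 3 was left out throughout, the adjusted p was 0.0743 for AURKA, 0.111 for BUB1 and 0.162 for CDKN1A.

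Of the 1571 genes called between the protocols 6 had the opposite sign in TRAC, and they were named after their values were seen. FOXM1, a factor of mitotic genes, had a log2 fold change of -0.95 in ZNF503 and 0.04 in TRAC, and the cell cycle factor E2F1 -0.79 and 0.00. PGA5, a pepsinogen, had 6.54 and -0.20, and LINC02024 3.50 and -0.76. For CNNM4 the values were 0.53 and -0.08, and for TRAPPC11 0.41 and -0.01. In FOXM1, E2F1, CNNM4 and TRAPPC11 the TRAC value was close to no change, so the opposite sign is not a reversal there. With 1 library left out, the adjusted p rose to 0.159 for CNNM4 without AM replicate 3, 0.222 for E2F1 without AM replicate 1, 0.102 for FOXM1 without AM replicate 3, 0.0752 for LINC02024 without AM replicate 3, 0.0555 for PGA5 without VM replicate 2 and 0.166 for TRAPPC11 without VM replicate 3. Among the other fits with every library kept, the adjusted p rose to 0.183 for CNNM4 with no filter on low counts, 0.140 for E2F1 with the 6 libraries alone, 0.0771 for FOXM1 with the 6 libraries alone with a replicate block and 0.319 for TRAPPC11 with no filter on low counts. Leaving replicate 3 out of every group gave an adjusted p of 0.187 for CNNM4, 0.232 for E2F1, 0.188 for FOXM1, 0.158 for LINC02024 and 0.319 for TRAPPC11. Without replicate 3 PGA5 had too few counts for a test. None of the 6 was called in TRAC, and none differed between the genotypes at the adjusted threshold (unadjusted p from 0.00217 to 0.0285). The 6 were picked by a call in ZNF503 and the other sign in TRAC, so these unadjusted p-values do not test that difference.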
